A study of Oryzias latipes with 18 samples.

Results

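The testis of medaka, a small freshwater fish (Oryzias latipes), was profiled by RNA sequencing after 21 days in water with perfluorooctane sulfonate (PFOS) at 0.02 mg/L. The results below compare 3 testis libraries of control lineage fish kept at 0.02 mg/L PFOS with 3 libraries of control lineage fish kept at 0 mg/L. They are 6 of the 18 libraries of the series, chosen by the lineage and dose on their labels. Both groups belong to the control lineage, the counterpart of a bisphenol A (BPA) lineage. The remaining 12 libraries come from control lineage fish at 0.002 mg/L PFOS and from the BPA lineage at all 3 PFOS levels including 0 mg/L, whose ancestors met BPA at 10 µg/L as embryos 4 generations earlier. The labels call the 3 libraries of a group biological replicates, while no source used here gives the age of the fish, their strain or the number of fish behind a library. The p-values below therefore measure the spread between libraries within groups, taken over 17 of the 18 libraries and not over the 6 compared alone. Of 22941 genes in the deposited table, 18792 had a mean of at least 10 normalized reads over the 18 libraries and were tested, and 13463 of these had a gene name.

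PFOS is a fluorinated surfactant that persists in water and tissue. It binds fatty acid-binding proteins, and in rodents it activates PPAR-alpha, a nuclear receptor that turns on genes of fatty acid oxidation. In a fish testis, germ cells develop in cysts, each enclosed by Sertoli cells: spermatogonia divide by mitosis, spermatocytes recombine their chromosomes in meiosis, and spermatids build the sperm flagellum. Tight junctions between Sertoli cells close off the later cysts, and Leydig cells outside the cysts make androgens.

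Each value is the read count of a gene after division by the size factor of its library, called normalized reads here. Differences are given as log2(normalized reads + 1) at 0.02 mg/L minus that at 0 mg/L, with the standard error (SE) from limma and a p-value adjusted by the Benjamini-Hochberg method over all 18792 genes. A gene is said to have risen or fallen when that adjusted p lay under 0.05. Whole reads recovered from the values numbered 23.7 to 35.2 M in the 6 libraries, and log2 values of replicate pairs correlated at 0.935 to 0.957. The library labelled control lineage 0.002 mg/L replicate 2, which stood apart and was rich in egg-coat transcripts, was left out of the fit. Genes of germ cells and of the male gonad were present in all 6 libraries. The germ cell helicase gene ddx4 had 42751, 38037 and 49655 normalized reads at 0.02 mg/L, compared with 26961, 28149 and 21983 at 0 mg/L. ddx4 also had 28213 in the library left out, so its level does not test the tissue label. The Sertoli cell gene gsdf had 22844, 37176 and 31814 normalized reads at 0.02 mg/L, compared with 30707, 30269.7 and 25970.0 at 0 mg/L, and the male-determining gene dmy had 2042, 2391 and 3031 at 0.02 mg/L, compared with 2916, 4134 and 3387 at 0 mg/L, without passing the test.

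Markers of other tissues differed between the groups. Members of a pancreas, gut and kidney list, 54 genes in all, summed to 6135, 5350 and 6768 normalized reads for the exposed replicates 1, 2 and 3, against 65745, 11495 and 53431 for the 0 mg/L replicates. In the 11 libraries outside these 6 and the one left out, the mean log2 level of the same list, relative to the mean of the 17 libraries fitted, lay between -0.80 and 0.26. It was -0.62, -0.61 and -0.66 at 0.02 mg/L, inside that range, against 2.37, 0.55 and 1.61 at 0 mg/L, above it. The list of lipoproteins and liver plasma proteins stood at -0.57, -0.21 and -0.28 at 0.02 mg/L, against 1.93, 0.57 and 0.18 at 0 mg/L. Egg-coat and oocyte transcripts went the other way, with list levels of -0.05, 1.82 and 1.0 at 0.02 mg/L, against -0.66, -0.74 and -0.25 at 0 mg/L. The part of tissue content in the gene results was not tested. In whole tissue, fewer cells of a type and less RNA per cell cannot be told apart.

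**Figure D1:**
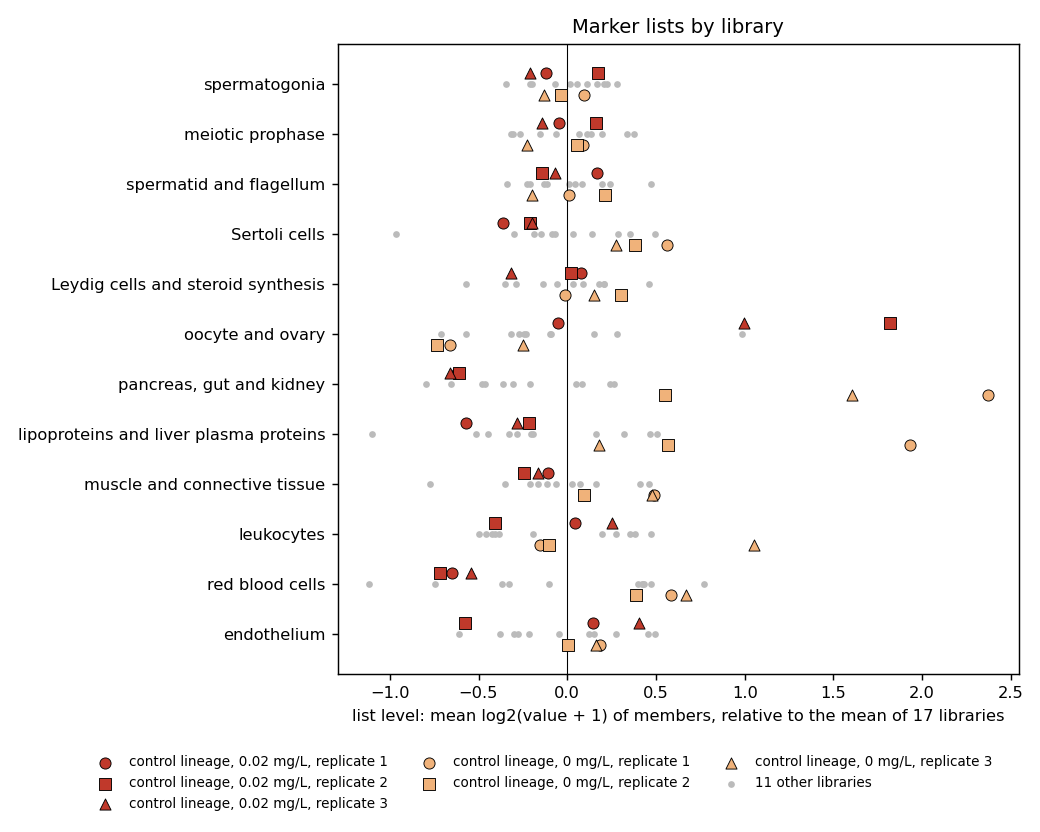
Level of each marker list (mean log2(normalized reads + 1) of its members relative to the mean of 17 libraries) in every library, with the control lineage at 0.02 mg/L in red above the control lineage at 0 mg/L in orange, and 11 other libraries in grey. The 0.02 and 0 mg/L libraries do not overlap for the pancreas, gut and kidney list, the Sertoli cell list or the oocyte list. Nor do they for lipoproteins and liver plasma proteins, muscle and connective tissue or red blood cells. They overlap for spermatogonia, meiotic prophase, spermatids, Leydig cells, leukocytes and endothelium.

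In the testis at 0.02 mg/L, 1155 genes rose (6.15% of those tested) and 1254 fell (6.67%), together 2409 genes or 12.8%. Falls were larger than rises. The median log2 difference was 0.87 among the rises and -1.61 among the falls, against 0.03 over all genes tested. Of the rises, 409 reached a log2 difference of 1, and of the falls 1060 reached -1. At an unadjusted p under 0.05 there were 5955 genes. The 3 libraries at 0.02 mg/L all lay above the 3 at 0 mg/L for 3665 genes (19.5%) and all below for 3225 (17.2%), and 1127 of the rises and 1176 of the falls were among these. Just inside the threshold lay FAM171B with 1.38 (adjusted p = 0.0499), and just outside it gna15.4 with 0.86 and pitx3 with 1.86.

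The number of calls rested on single libraries. It was 77 without 0.02 mg/L replicate 3, 84 without 0 mg/L replicate 1, 555 without 0.02 mg/L replicate 1 and 956 without 0 mg/L replicate 3, but 3114 without 0.02 mg/L replicate 2 and 1883 without 0 mg/L replicate 2. With the library of egg-coat content kept, 13 genes passed, and none of the cell cycle, repair, chromatin, TGF-beta, oocyte, Sertoli cell, fatty acid and nuclear receptor genes listed below was among them. edgeR called 2296 genes on the recovered reads of 17 libraries and 905 on those of the 6 libraries alone, the second a fit chosen after seeing the data. Of the 150 genes named by a fixed rule, 21 passed in each of the 6 fits that left out 1 library. They were PRELID3B, S100P, ZNF276, anxa1, btg1, cfap43, cldn15la, ctss, gtf3ab, mgmt, rab24, racgap1, rbfox1l, rfx2, rsph10b, si:ch73-234b20.5, slc25a42, v1ar1, wnt8b, zgc:109949 and zp3f.1. Without 0.02 mg/L replicates 1, 2 and 3 in turn, 64, 132 and 22 of the 150 passed, and without 0 mg/L replicates 1, 2 and 3 in turn 23, 119 and 79. With all 18 libraries kept, 5 of the 150 passed. Of the 21, S100P, btg1, cldn15la and zgc:109949 passed in every setting tried, and each of the rest fell short in at least 1. None of the 150 changed direction in any of these fits.

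**Figure D2:**
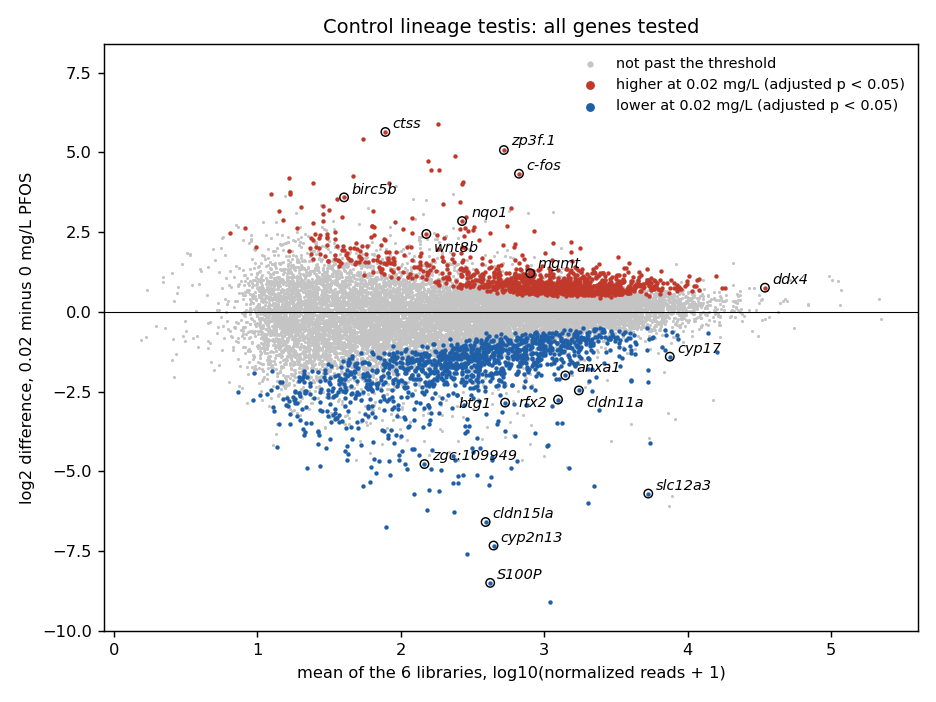
Log2 difference between 0.02 and 0 mg/L PFOS in the control lineage against the mean of the 6 libraries, 1 point per gene tested. The 1155 rises (red) have a median of 0.87 and the 1254 falls (blue) a median of -1.61, with S100P, cyp2n13 and cldn15la among the lowest points.

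Genes of the cell cycle and DNA replication gave more rises than any other of the 32 lists. Of 108 measured members, 25 rose (23.1%, against 6.15% of all genes), 4 fell and 79 did not pass, with a median log2 difference of 0.33 over the list, against 0.03 over all genes. The rises covered successive steps of replication. Origins are marked by the recognition complex, of which orc1 rose by 0.69 ± 0.19 (adjusted p = 0.0285). The helicase that opens the DNA is a ring of MCM proteins held by the GINS complex. Its subunit gene mcm2 had 6473, 8051 and 8661 normalized reads at 0.02 mg/L, against 3593, 5374 and 5298 at 0 mg/L (log2 difference 0.71 ± 0.22, adjusted p = 0.0408), and mcm5 rose by 0.70. The GINS gene gins2 (ENSORLG00000009515) had 912, 859 and 1250.0 normalized reads at 0.02 mg/L, against 513, 561 and 529.6 at 0 mg/L (log2 difference 0.89 ± 0.19, adjusted p = 0.014). All 3 exposed libraries stood above all 3 unexposed ones for both genes, and gins1 rose by 0.85. Among genes of the replication fork, the single-strand binding protein genes rpa1 and rpa3 rose by 0.60 and 0.83, the clamp loader genes rfc4 and rfc5 by 0.66 and 0.70, the primase-polymerase gene pola2 by 0.58 and the ligase gene lig1 by 0.82. Genes of nucleotide supply rose as well, RRM2 of ribonucleotide reductase by 0.75 and dhfr by 0.88.

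Regulators of the entry into S phase moved the same way. The cyclin E gene ccne1 had 2115, 1729.8 and 2861 normalized reads at 0.02 mg/L, against 830.2, 1172 and 1165 at 0 mg/L (log2 difference 1.07 ± 0.21, adjusted p = 0.00969). The E2F transcription factors, which switch on replication genes, rose too: e2f1 by 1.08 ± 0.31 and E2F3 by 0.97 ± 0.22. mybl2b, which acts with them on mitotic genes, rose by 0.95, and the proliferation marker mki67 had 14921, 11138 and 16120.0 normalized reads at 0.02 mg/L, against 7524, 9527 and 6720.2 at 0 mg/L (log2 difference 0.83 ± 0.20, adjusted p = 0.0223). Brakes of the cycle rose beside them. The retinoblastoma gene rb1 rose by 0.78, the CDK inhibitor gene cdkn2c by 0.97 and the checkpoint kinase gene chek2 by 0.91. The survivin gene birc5b (ENSORLG00000027336), of the chromosomal passenger complex, had 80.3, 65 and 73 normalized reads at 0.02 mg/L, against 1.91, 8.9 and 6.87 at 0 mg/L (log2 difference 3.59 ± 0.57, adjusted p = 0.00568). The replication clamp pcna did not pass, with 7390.0, 11383 and 6438 normalized reads at 0.02 mg/L, compared with 10274, 7447 and 7849 at 0 mg/L.

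The list also held 4 falls (3.70%, against 6.67% of all genes). racgap1 (ENSORLG00000015540), needed for the cleavage of the dividing cell, had 922, 1336 and 518 normalized reads at 0.02 mg/L, against 3935, 4238 and 2743 at 0 mg/L (log2 difference -2.05 ± 0.35, adjusted p = 0.00658). plk4, the kinase that starts centriole duplication, fell by 1.55 and the spindle checkpoint kinase gene bub1 by 1.07. The polymerase delta gene pold1, also of the replication fork, fell by 1.08, against the fork genes above. The groups did not overlap for any of the 29 genes of this list that passed. The same held for 1127 of all 1155 rises and 1176 of all 1254 falls. The library left out for its egg-coat transcripts stood above all 17 others for 17 of the 25 rises (68.0%), against 46.0% of all rises and 28.2% of all genes tested, with 27147 normalized reads for mcm2 and 18859.7 for ccne1, and for none of the 4 falls. The part of oocyte RNA in the rises was not tested. Without 0.02 mg/L replicates 1, 2 and 3 in turn the list held 10, 29 and 2 calls, without 0 mg/L replicates 1, 2 and 3 in turn 2, 22 and 13, and edgeR on the 6 libraries alone made 15.

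**Figure D3:**
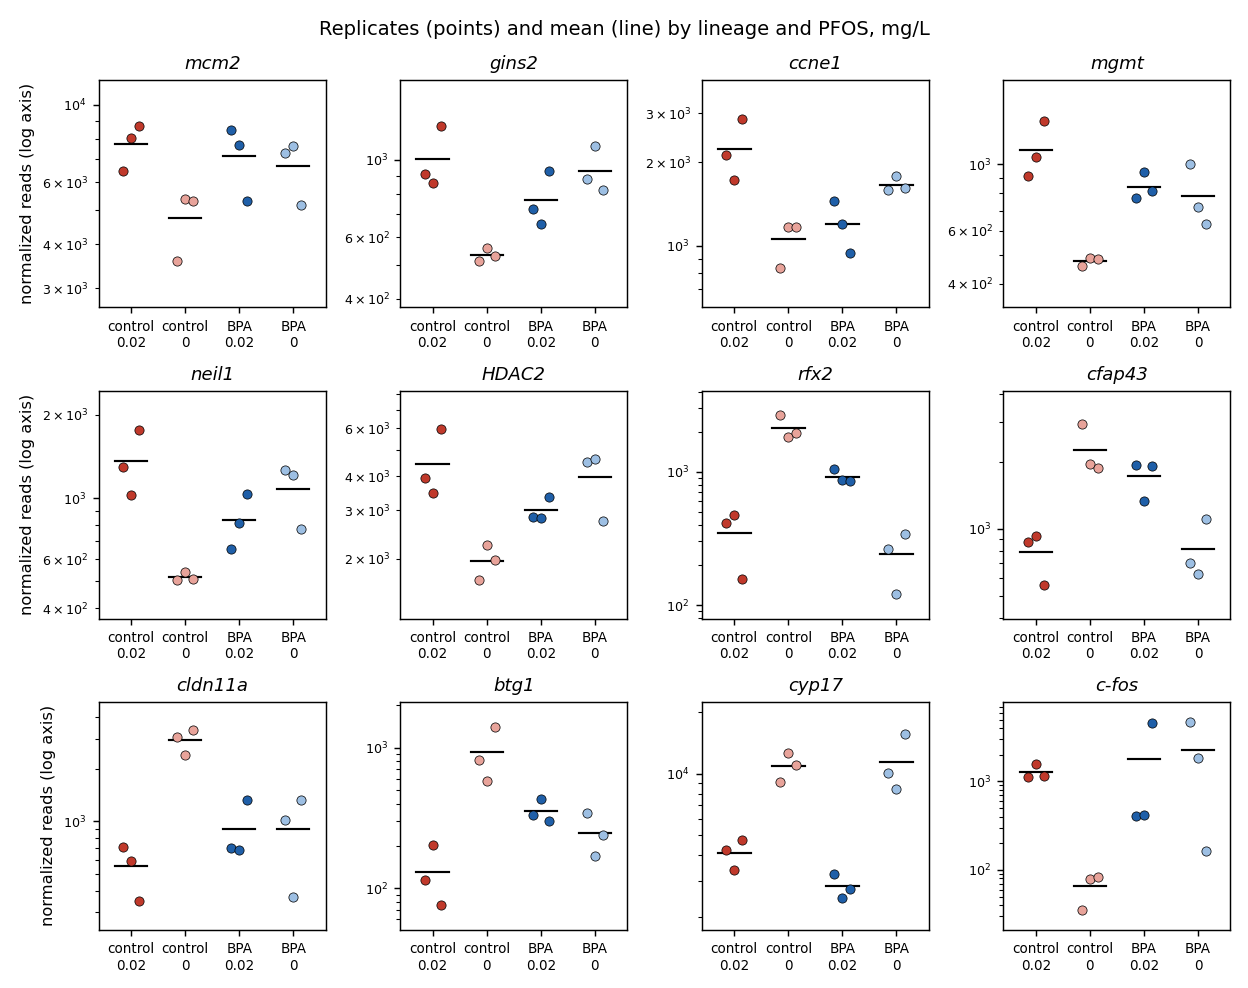
Normalized reads (log axis) of 12 genes in each library, with 0.02 mg/L left of 0 mg/L in the control lineage (red) and then in the BPA lineage (blue). Points are libraries and lines are means. The control lineage groups are apart for each of the 12 genes, and for rfx2 and cfap43 the BPA lineage has the higher values at 0.02 mg/L.

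DNA repair genes were another list with many rises. Of 68 measured, 15 rose (22.1%, against 6.15% of all genes), 3 fell (4.41%, against 6.67%) and 50 did not pass. The median log2 difference of the list was 0.40. Some of the rises were of genes that mend single damaged bases. mgmt (ENSORLG00000022656), which takes alkyl groups off guanine, had 912, 1056 and 1395 normalized reads at 0.02 mg/L, against 458, 486 and 484 at 0 mg/L (log2 difference 1.21 ± 0.20, adjusted p = 0.00658). neil1 (ENSORLG00000007274), a glycosylase that cuts out oxidized bases, had 1294, 1030.1 and 1764 normalized reads at 0.02 mg/L, against 507, 538 and 508 at 0 mg/L (log2 difference 1.36 ± 0.23, adjusted p = 0.00682). The unexposed libraries lay within a narrow range for both genes and the exposed ones were spread above it. The glycosylase genes MUTYH and nthl1 rose by 0.67 and 0.69, and alkbh2, a dealkylating oxygenase gene, by 0.96.

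Members of other repair routes passed as well. For nucleotide excision, ercc2, a helicase of the transcription factor TFIIH, had 2558, 1238 and 3116 normalized reads at 0.02 mg/L, against 826, 991 and 1108 at 0 mg/L (log2 difference 1.15 ± 0.28), and the damage sensor gene xpc rose by 0.69. For the joining of broken ends xrcc4 rose by 0.99 ± 0.22. Checkpoint genes rose as well, atr by 0.69, rad17 by 0.61 and the clamp gene rad9a by 0.95, and so did rad18 and polk, which act when replication passes a lesion, by 0.61 and 0.67. The falls included ercc6 (-0.91 ± 0.18), which couples repair to transcription and fancl (-0.94) of the Fanconi pathway. mgmt passed in all fits that left out 1 library, but not with all 18 libraries kept. For 10 of the 15 rises (66.7%) the library with egg-coat transcripts stood above all 17 others, against 46.0% of all rises and 28.2% of all genes tested. It did not for mgmt, where it had 482 normalized reads. The list's 18 calls became 4, 20 and 1 without 0.02 mg/L replicates 1, 2 and 3 in turn and 2, 12 and 7 without 0 mg/L replicates 1, 2 and 3, and edgeR on the 6 libraries alone made 5.

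Chromatin genes moved both ways. Among 128 genes of DNA methylation and histone modification 16 rose (12.5%, against 6.15% of all genes) and 7 fell (5.47%, against 6.67%). The other 105 did not pass, and the median log2 difference was 0.10. The deacetylase gene HDAC2 had 3949, 3477 and 5940.2 normalized reads at 0.02 mg/L, against 1669, 2249 and 1979 at 0 mg/L (log2 difference 1.15 ± 0.23, adjusted p = 0.0101). Other deacetylase genes rose in step: hdac6 by 0.74, hdac12 by 0.89, and the sirtuin genes sirt3, sirt6 and sirt7 by 0.95, 0.96 and 0.96. The methyltransferase gene smyd3 rose by 1.05 ± 0.28. The related genes UHRF2 and uhrf1, which bind methylated DNA, parted: UHRF2 had 6041, 4577 and 8296 normalized reads at 0.02 mg/L, against 2646, 3315 and 2766 at 0 mg/L (log2 difference 1.08 ± 0.23), while uhrf1 had 976, 1922 and 928 at 0.02 mg/L, against 2396, 2049.5 and 2119.7 at 0 mg/L (log2 difference -0.86 ± 0.24, adjusted p = 0.0317). The maintenance methyltransferase gene dnmt1 did not pass (log2 difference 0.53 ± 0.19, adjusted p = 0.0663). The acetyltransferase gene kat2b fell by 2.27, actl6a of chromatin remodelling complexes by 1.73, chd3 by 1.5 and the demethylase gene kdm2ba by 1.31, while the bromodomain genes brd2a and brd1b fell by 0.79 and 0.78. For 9 of the 16 rises (56.2%) the library with egg-coat transcripts stood above all 17 others, against 46.0% of all rises and 28.2% of all genes tested. The 23 calls became 6, 30 and 0 without 0.02 mg/L replicates 1, 2 and 3 in turn, 0, 14 and 7 without 0 mg/L replicates 1, 2 and 3, and 12 in edgeR on the 6 libraries alone.

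Germ cell lists held rises and falls. Their median log2 differences were 0.35 for meiotic prophase, with 14 members positive and 7 negative, 0.21 for the piRNA list, -0.06 for spermatogonia and -0.03 for spermatids. In the list of piRNA pathway and germ granule genes, which silence transposons and guard germline RNA, 4 of 23 rose (17.4%, against 6.15% of all genes). None fell past the threshold. Counting both directions, 9 of the 23 members had an unadjusted p under 0.05 in limma, beside 5955 of all 18792 genes. edgeR called 4, beside 2296 of all genes. ddx4 rose by 0.76 ± 0.21, asz1 by 0.84 and ddx6 by 0.74. nanos3, a translational repressor of early germ cells, had 99.9, 75.5 and 173 normalized reads at 0.02 mg/L, against 30.6, 13.8 and 36.1 at 0 mg/L (log2 difference 2.09 ± 0.52, adjusted p = 0.0218). In the library left out for its egg-coat transcripts nanos3 stood at 5712 normalized reads. That library was above all 17 others for 1 of the 4 rises of the piRNA list (25%), against 46% of all rises. The PIWI gene piwil1 did not pass, with 19301, 29583 and 21099 normalized reads at 0.02 mg/L, compared with 29621, 24303 and 19069 at 0 mg/L. Among spermatogonial genes, which number 21, 2 rose and 2 fell (9.52% each, against 6.15% and 6.67% of all genes). The rises were ddx4 and nanos3. The falls there were id4, a marker of spermatogonial stem cells in mice (37.2, 35.3 and 25.1 normalized reads at 0.02 mg/L, against 163, 68 and 281 at 0 mg/L, log2 difference -2.15 ± 0.47), and kitb, of the Kit receptor family (10.8, 11.3 and 0.737 normalized reads at 0.02 mg/L, against 109.5, 31.6 and 39.5 at 0 mg/L).

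In the meiotic list of 21 genes 2 fell and 2 rose (9.52% each, against 6.67% and 6.15% of all genes). sycp1, which zips paired chromosomes together, had 2272, 4058 and 1069 normalized reads at 0.02 mg/L, against 12677, 6094 and 5526 at 0 mg/L (log2 difference -1.81 ± 0.43, adjusted p = 0.021), and the meiotic cohesin gene smc1b fell as well (log2 difference -1.09 ± 0.30), though its groups overlapped. tex11, needed for crossing over, rose by 0.71, with 11157, 9844 and 11778 normalized reads at 0.02 mg/L, against 5109, 8047 and 7159 at 0 mg/L.

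Genes of cilium and flagellum assembly included some of the firmest falls. rfx2 (ENSORLG00000009257), a transcription factor that drives ciliary genes and the late steps of sperm formation in mice, had 414, 474 and 157 normalized reads at 0.02 mg/L, against 2666, 1814 and 1964 at 0 mg/L (log2 difference -2.75 ± 0.40, adjusted p = 0.00307). Every exposed library stood below every unexposed one, with 0.02 mg/L replicate 3 the lowest. In the 11 other libraries fitted, rfx2 ranged from 120 to 1049 normalized reads, also below the unexposed control lineage ones. Its relative rfx3 fell by 1.47 and foxj1, the other main ciliary regulator, by 0.71. In the list of ciliary and spermiogenic factors 3 of 15 fell (20%, against 6.67% of all genes) and tfdp1a rose. The median of that list was 0.08, with 8 members positive and 7 negative. Of the flagellum list 2 axonemal genes fell. cfap43 had 871, 928 and 560.5 normalized reads at 0.02 mg/L, against 2932, 1941 and 1869 at 0 mg/L (log2 difference -1.52 ± 0.26, adjusted p = 0.00658). The dynein heavy chain gene DNAH10 fell as well (log2 difference -1.79 ± 0.41). rsph10b of the radial spoke had 1106, 1073 and 758 normalized reads at 0.02 mg/L, against 3077, 2446 and 2089 at 0 mg/L (log2 difference -1.37 ± 0.22, adjusted p = 0.00599). cfap43 and DNAH10 were the 2 falls among the 39 genes of the flagellum list (5.13%, against 6.67% of all genes). Another 2 rose, efcab1 by 0.91 and spata6 by 0.66 (5.13%, against 6.15% of all genes), and the list median was -0.03. rsph10b lies outside the list. rfx2, cfap43 and rsph10b passed in each fit that left out 1 library, though each fell short in 1 other processing setting.

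The Sertoli cell list had a lower mean level in the exposed testes, though most members did not pass. The level of the 23-gene list was -0.36, -0.21 and -0.20 at 0.02 mg/L, against 0.56, 0.38 and 0.27 at 0 mg/L, with no overlap between the groups and a median log2 difference of -0.76. In the 11 other libraries fitted the list level lay between -0.96 and 0.50. Of its members 3 fell (13.0%, against 6.67% of all genes) and 20 did not pass, and 18 had a negative difference and 5 a positive one. gsdf, whose values are given above, overlapped between the groups. amh (ENSORLG00000015951), the anti-Müllerian hormone made by Sertoli cells, had 9279, 13886 and 5822 normalized reads at 0.02 mg/L, against 28349, 21374 and 16751 at 0 mg/L (log2 difference -1.25 ± 0.26, adjusted p = 0.012). A second gene labelled amh (ENSORLG00000005044) did not pass (log2 difference -0.24 ± 0.24). cldn11a (ENSORLG00000011459), the claudin of the Sertoli cell barrier in mice, had 714, 592 and 347 normalized reads at 0.02 mg/L, against 3067, 2402 and 3347 at 0 mg/L (log2 difference -2.46 ± 0.61, adjusted p = 0.024). In the 11 other libraries fitted cldn11a ranged from 176 to 1396, also below the unexposed control lineage ones. The transcription factor gene gata4 fell as well (log2 difference -1.52 ± 0.39). The 3 calls became 1, 4 and 0 without 0.02 mg/L replicates 1, 2 and 3 in turn and 0, 4 and 2 without 0 mg/L replicates 1, 2 and 3.

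Junction genes that passed were all lower at 0.02 mg/L. Of 54 genes of tight junctions and cell adhesion 12 fell (22.2%, against 6.67% of all genes) and 42 did not pass. The list level was 0.85, 0.23 and 0.91 at 0 mg/L, above the 11 other libraries fitted (-0.33 to 0.11). It was -0.07, -0.30 and -0.30 at 0.02 mg/L, inside that range. Some members are at home in gut epithelia. cldn15la had 5.88, 3.53 and 3.69 normalized reads at 0.02 mg/L, against 1675, 155 and 496 at 0 mg/L, and cdh17, the intestinal cadherin, 53.9, 10.6 and 79.6 at 0.02 mg/L, against 2578, 84.2 and 6201 at 0 mg/L. In both, 0 mg/L replicate 2 was the lowest unexposed library, and this held for 9 of the 12 falls. Other members fell as well: the tricellular junction gene marveld2a had 462, 430.0 and 296 normalized reads at 0.02 mg/L, against 1259, 889 and 965 at 0 mg/L (log2 difference -1.40 ± 0.28, adjusted p = 0.0116), occludin oclna fell by 1.42, marveld1 by 1.06, the scaffold gene tjp1a by 0.91 and the plakoglobin gene jupa by 0.63. The list's calls numbered 4, 11 and 1 without 0.02 mg/L replicates 1, 2 and 3 in turn and 1, 13 and 2 without 0 mg/L replicates 1, 2 and 3. edgeR on the 6 libraries alone made 6 calls.

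Of 61 genes of the TGF-beta family and its signalling, which includes amh, 5 rose (8.2%, against 6.15% of all genes), 9 fell (14.8%, against 6.67%) and 47 did not pass. The list median was -0.07, and 0.04 with genes of a mean of at least 50 only. Among the ligands bmp6 fell by 2.68 and tgfb3 by 1.5, while tgfb1a rose by 0.64. Among the receptors acvr1l had 165, 317 and 132 normalized reads at 0.02 mg/L, against 496, 426 and 470.1 at 0 mg/L (log2 difference -1.28 ± 0.31, adjusted p = 0.0204), bmpr1aa fell by 0.87 and the activin receptor gene acvr2ab rose by 1.0 ± 0.26. Inside the cell smad9, a signal carrier, rose by 0.96, and so did SMURF1 and SMURF2, ligases that mark the pathway's proteins for breakdown, by 0.53 and 0.57. Outside it, the protease gene bmp1a had 118, 131 and 98.1 normalized reads at 0.02 mg/L, against 341, 280.1 and 475 at 0 mg/L (log2 difference -1.63 ± 0.33), and LTBP3, which stores latent TGF-beta, fell by 1.38. The 14 calls became 3, 14 and 0 without 0.02 mg/L replicates 1, 2 and 3 in turn and 0, 8 and 3 without 0 mg/L replicates 1, 2 and 3.

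Among hormone genes cyp17 (ENSORLG00000019226) fell, which encodes the enzyme that turns progestins into androgen precursors. It had 4228, 3381 and 4755 normalized reads at 0.02 mg/L, against 9119, 12591 and 10982 at 0 mg/L (log2 difference -1.40 ± 0.38, adjusted p = 0.0286). This gene lies outside the lists and was chosen after its values were seen. In the list of Leydig cell and steroid genes POR, the electron donor of such enzymes, fell by 0.81, and the other 13 members did not pass. That is 7.14% of the list, against 6.67% of all genes. star, which feeds cholesterol into steroid synthesis, had 942, 2052 and 820.0 normalized reads at 0.02 mg/L, compared with 942, 1096 and 837 at 0 mg/L. The list level overlapped between the groups, with 0.08, 0.02 and -0.32 at 0.02 mg/L, compared with -0.01, 0.30 and 0.15 at 0 mg/L.

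Of 49 nuclear receptor genes 5 fell (10.2%, against 6.67% of all genes) and 44 did not pass. The list level was -0.11, -0.09 and -0.24 at 0.02 mg/L, against 0.63, 0.16 and 0.63 at 0 mg/L. The 11 other libraries fitted lay between -0.54 and 0.21. rxrbb, the partner of many other receptors, had 487, 811 and 300.1 normalized reads at 0.02 mg/L, against 1499, 1224 and 1363 at 0 mg/L (log2 difference -1.46 ± 0.30, adjusted p = 0.011). The estrogen receptor gene esr2 (ENSORLG00000017721) had 17.6, 54.4 and 8.85 normalized reads at 0.02 mg/L, against 127, 118 and 109 at 0 mg/L (log2 difference -2.46 ± 0.64, adjusted p = 0.0258). The glucocorticoid receptor gene nr3c1 fell by 1.27 and nr2f2 by 1.81. hnf4a, a receptor of liver, gut and kidney, fell by 2.40 together with the tissue markers given above. esr1 did not pass, with 108, 170.2 and 86.3 normalized reads at 0.02 mg/L, compared with 315, 431 and 264 at 0 mg/L (adjusted p = 0.0635), and neither did the androgen receptor gene ar (log2 difference -1.43 ± 0.68, adjusted p = 0.163). The 5 calls became 1, 5 and 0 without 0.02 mg/L replicates 1, 2 and 3 in turn and 0, 6 and 1 without 0 mg/L replicates 1, 2 and 3.

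**Figure D4:**
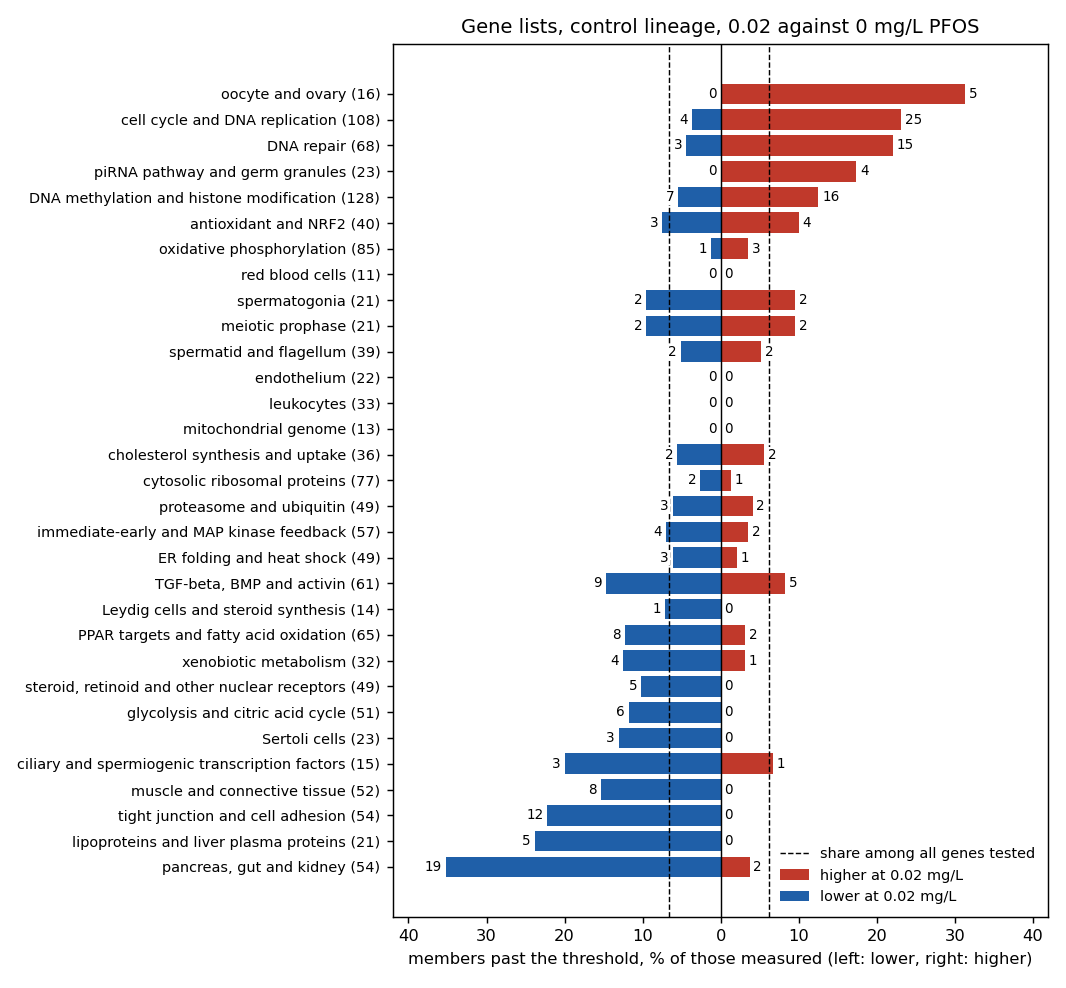
Share of the measured members of each gene list shown that fell (blue, left) or rose (red, right) at 0.02 mg/L in the control lineage, with the list size in brackets, counts at the bar ends and the shares among all genes as dashed lines. Cell cycle (25 of 108) and DNA repair (15 of 68) lie far right of the dashed line, and the pancreas, gut and kidney list (19 of 54) far left.

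Digestive and kidney transcripts had the lowest median of the 32 lists. Of the 54 genes of that list 19 fell (35.2%, against 6.67% of all genes) and 2 rose (3.7%, against 6.15%). Like the other lists it was written with earlier results of these data known, which may favour such a share. It holds S100P, cyp2n13 and cldn15la, which are among the 12 largest named falls. The median log2 difference was -1.98. For the pancreatic enzyme genes cpb1 and ctrb1, replicate 2 was the highest unexposed library: cpb1 had 3.92, 24.7 and 11.1 normalized reads at 0.02 mg/L, against 93, 1072 and 179 at 0 mg/L, and ctrb1 had 6.85, 17.7 and 4.42 at 0.02 mg/L, against 104, 454 and 124 at 0 mg/L. In slc12a1, the kidney salt cotransporter, replicate 2 was instead the lowest unexposed library, with 25.5, 5.65 and 17.7 normalized reads at 0.02 mg/L, against 1033, 26.7 and 1469 at 0 mg/L. S100P fell to 0, 0.706 and 0 normalized reads at 0.02 mg/L, against 1371, 52.6 and 1094 at 0 mg/L. Several fitted differences in this group rest on genes near 0 at 0.02 mg/L and depend on the pseudocount. Over all genes, 77 of the 1254 falls (6.14%) had 0 mg/L replicate 2 below 0.2 times both other unexposed libraries, against 265 of all genes tested (1.41%), and 39 of the 66 falls of -4 or beyond did. The 2 rises, slc22a2 and pax2a, went against the list. slc22a2 (ENSORLG00000026143), an organic cation transporter gene, had 495, 248 and 503 normalized reads at 0.02 mg/L, against 87.2, 103 and 145 at 0 mg/L (log2 difference 1.85 ± 0.32, adjusted p = 0.00797). The list's calls became 8, 18 and 2 without 0.02 mg/L replicates 1, 2 and 3 in turn and 2, 19 and 10 without 0 mg/L replicates 1, 2 and 3.

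Oocyte genes had the highest median of the 32 lists, 1.25. zp3f.1 and zp3f.2, which encode egg-coat proteins, had 213, 2249 and 596 and 43.1, 624 and 228 normalized reads at 0.02 mg/L, against 8.28, 12.1 and 60.7 and 5.09, 2.43 and 15.5 at 0 mg/L. Replicate 2 was the highest exposed library for both, and also for zpax1 with 167, 2639 and 514 normalized reads at 0.02 mg/L, against 57.3, 42.9 and 98.5 at 0 mg/L. Of 16 genes on the list 5 rose (31.25%, against 6.15% of all genes), the others being org and figla. This list too was written with earlier results of these data known, which may favour such a share. figla, a transcription factor of oocytes, had 149, 249 and 204 normalized reads at 0.02 mg/L, against 58.6, 76.1 and 76.7 at 0 mg/L (log2 difference 1.48 ± 0.41). The oocyte growth factor genes gdf9 and bmp15 did not pass. The library left out stood at over 10 times the highest of the other 17 for 37 of the 91 rises with a log2 difference of at least 2 (40.7%) and for 2.36% of all genes. Without 0.02 mg/L replicates 1, 2 and 3 in turn the list held 6, 5 and 1 calls, and without 0 mg/L replicates 1, 2 and 3 it held 1, 4 and 4.

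Most metabolic genes that passed were lower. Of 65 PPAR targets and fatty acid genes 8 fell (12.3%, against 6.67% of all genes) and 2 rose (3.08%, against 6.15%). The genes of fatty acid synthesis acaca and acacb fell by 0.95 and 1.05 and their regulator srebf1 had 145, 162 and 50.9 normalized reads at 0.02 mg/L, against 344, 336 and 401 at 0 mg/L (log2 difference -1.75 ± 0.46, adjusted p = 0.0264). Fatty acid-binding protein genes fell too, fabp7 with 21.5, 31.8 and 15.5 normalized reads at 0.02 mg/L, against 2918, 97.9 and 101 at 0 mg/L, while fabp10a fell by 3.02. The receptor gene ppara did not pass, with 593, 691 and 692 normalized reads at 0.02 mg/L, compared with 682, 769 and 729 at 0 mg/L. Both genes labelled ELOVL6, a fatty acid elongase, rose, ENSORLG00000022514 by 0.83 and ENSORLG00000002876 by 1.2. Of 51 genes of glycolysis and the citric acid cycle 6 fell (11.8%, against 6.67% of all genes) and none passed upward. The list level was 0.44, 0.29 and 0.20 at 0 mg/L, above the 11 other libraries fitted (-0.23 to 0.16). It was -0.11, -0.11 and -0.14 at 0.02 mg/L, inside that range. gapdh had 644, 429 and 780.2 normalized reads at 0.02 mg/L, against 4654, 1746 and 4705 at 0 mg/L (log2 difference -2.49 ± 0.51, adjusted p = 0.0133). The glucose transporter gene slc2a3b fell by 0.97, citrate synthase cs by 1.91 and OGDH by 1.2. In oxidative phosphorylation 3 of 85 rose (3.53%, against 6.15% of all genes) and sdha fell by 0.51. The median of that list was nonetheless 0.28, with 65 members positive and 20 negative. All 3 exposed libraries lay above all 3 unexposed ones for 32 members and below for 3, beside 19.5% and 17.2% of all genes. The fatty acid list held 1, 11 and 0 calls without 0.02 mg/L replicates 1, 2 and 3 in turn and 0, 6 and 6 without 0 mg/L replicates 1, 2 and 3.

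Of 40 antioxidant and NRF2 genes 4 rose (10.0%, against 6.15% of all genes) and 3 fell (7.5%, against 6.67%), with a list median of -0.01. nqo1, a quinone reductase switched on by NRF2, had 183, 549 and 697 normalized reads at 0.02 mg/L, against 42, 63.1 and 67.6 at 0 mg/L (log2 difference 2.85 ± 0.54, adjusted p = 0.00954). The NRF2 partner gene MAFG rose by 0.91, gpx3 by 0.86 and the ferritin gene fth1b by 0.73, while catalase cat fell by 0.72 and pgd by 0.51. In the library left out nqo1 stood at 390330.0 normalized reads. Of 32 xenobiotic genes 1 rose (3.13%, against 6.15% of all genes) and 4 fell (12.5%, against 6.67%). The epoxide hydrolase gene ephx1 rose by 0.69 ± 0.22. Those that fell were cyp2n13, gstr, cyp3a40 and the transporter gene abcb4, and each was lowest in replicate 2 among the unexposed libraries, as were 10 of the 19 falls of the gut and kidney list. gstr, for one, had 330.0, 239 and 442 normalized reads at 0.02 mg/L, against 7256, 511 and 5761 at 0 mg/L. The dioxin-inducible gene cyp1a did not pass, with 5.88, 5.65 and 5.16 normalized reads at 0.02 mg/L, compared with 348, 10.5 and 13.2 at 0 mg/L.

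Stress and immediate-early genes moved singly. Of 57 immediate-early and MAP kinase feedback genes 2 rose (3.51%, against 6.15% of all genes) and 4 fell (7.02%, against 6.67%). Of 49 protein folding and heat shock genes 1 rose (2.04%) and 3 fell (6.12%). Of 50 genes of p53 and apoptosis 2 rose (4%) and 3 fell (6%). c-fos had 1108, 1558 and 1139 normalized reads at 0.02 mg/L, against 35, 79.3 and 82.4 at 0 mg/L (log2 difference 4.33 ± 1.23, adjusted p = 0.0394). These unexposed control lineage libraries were the lowest of all 18 for c-fos, which varied widely between replicates elsewhere. Its BPA lineage replicates ranged from 165 to 4751 at 0 mg/L and from 408 to 4550 at 0.02 mg/L. The BPA lineage difference was -0.29 ± 1.23 and did not pass. btg1, a brake on cell division, had 115, 203 and 76 normalized reads at 0.02 mg/L, against 817, 582 and 1408 at 0 mg/L (log2 difference -2.84 ± 0.44, adjusted p = 0.00453). In the 11 other libraries fitted btg1 ranged from 104 to 431, also below the unexposed control lineage ones. The cytokine brake socs2 fell by 2.29. The stress factor gene ddit3 had 60.7, 81.2 and 33.9 normalized reads at 0.02 mg/L, against 204, 156 and 127 at 0 mg/L (log2 difference -1.52 ± 0.42), the chaperone gene hsp90b1 fell by 0.84 and chac1 rose by 0.83. The cyclin gene ccng1 fell by 1.87 and perp, of cell adhesion and death, by 1.38. In the muscle and connective tissue list 8 of 52 fell (15.4%, against 6.67% of all genes). Among them, the smooth muscle genes myh11a and TPM1 fell by 1.2 and 1.25 and the matrix genes fn1b and col5a2a by 1.64 and 1.59. No member rose past the threshold. Counting both directions, 21 of the 52 members had an unadjusted p under 0.05 in limma, beside 5955 of all 18792 genes. edgeR called 8, beside 2296 of all genes.

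Outside the lists, genes of signalling and transcription gave some of the firmest calls. wnt8b, a Wnt ligand, had 239, 229 and 293 normalized reads at 0.02 mg/L, against 36.9, 42.1 and 60.7 at 0 mg/L (log2 difference 2.44 ± 0.38, adjusted p = 0.00453), and the Wnt receptor gene fzd3a rose by 1.24 ± 0.22. gtf3ab, at 33458 normalized reads in the library left out, encodes a factor for the transcription of 5S ribosomal RNA genes. It had 89.1, 114 and 125 normalized reads at 0.02 mg/L, against 15.9, 14.6 and 17.2 at 0 mg/L (log2 difference 2.7 ± 0.40, adjusted p = 0.0033). anxa1, the phospholipid-binding protein annexin A1, had 429, 775 and 507 normalized reads at 0.02 mg/L, against 2544, 1687 and 2484 at 0 mg/L (log2 difference -1.99 ± 0.26, adjusted p = 0.00186). The exposed libraries were apart from the unexposed ones for each of them. In the 11 other libraries fitted anxa1 ranged from 500 to 1503, also below the unexposed control lineage ones. The calls of wnt8b, gtf3ab and anxa1 held in each fit that left out 1 library, though each fell short in 1 other processing setting. The call of fzd3a did not hold without 0.02 mg/L replicate 3 or without 0 mg/L replicate 1.

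For 4 lists limma made no call, and the counts of members with an unadjusted p under 0.05 are given for them. Over all 18792 genes tested, 5955 had such a p in limma, edgeR called 2296 and DESeq2 called 3801. For leukocytes these were 5 of 33, with 1 call by edgeR and 4 by DESeq2, and for red blood cells 3 of 11, with 0 and 3. For endothelium they were 2 of 22, with 0 calls by either tool, and for the mRNAs of the mitochondrial genome 4 of 13, with 0 by edgeR and 4 by DESeq2. The red blood cell list nonetheless lay at -0.65, -0.72 and -0.54 at 0.02 mg/L, against 0.58, 0.39 and 0.67 at 0 mg/L, and its globin gene hbba1 had 2.94, 3.53 and 6.64 normalized reads at 0.02 mg/L, compared with 47.7, 169 and 75 at 0 mg/L. Other lists had smaller shares of calls than all genes: cholesterol synthesis and uptake with 2 rises and 2 falls among 36, the proteasome and ubiquitin list with 2 and 3 among 49, and cytosolic ribosomal proteins with 1 and 2 among 77, of which rps6ka3b and rps19bp1 carry a similar name but are not ribosomal proteins. The median of the ribosomal list was 0.22, with 57 members positive and 20 negative.

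The same dose had a different outcome in the BPA lineage. There 77 genes passed (0.41%), 67 higher (0.357%) and 10 lower (0.0532%), and 3458 had an unadjusted p under 0.05. Leaving out 1 library at a time gave 0 to 682 calls, and edgeR made none, with 3424 genes at an unadjusted p under 0.05. The difference between the lineages was tested directly as an interaction, the control lineage difference minus the BPA lineage difference. It passed for 2674 genes (14.2%), positive for 1191 (6.34%) and negative for 1483 (7.89%). Of the 2409 genes that changed in the control lineage, 1509 (62.6%) were among them, which is 56.4% of the interaction calls. The interaction contains the control lineage difference that picked the 2409 genes, which favours this overlap, so the overlap is no separate result. Many control lineage changes had the opposite sign in the BPA lineage. Of the rises 76.8% had a negative BPA lineage difference, against 54.4% of all genes. Of the falls 72.6% had a positive one, against 45.6% of all genes. The 2 comparisons share no library. The interaction count was 261 with all 18 libraries, 1149 without control lineage 0.02 mg/L replicate 3, 1259 without BPA lineage 0 mg/L replicate 2, 1389 and 1574 without control lineage 0 mg/L replicate 1 and 0.02 mg/L replicate 1, 1606 and 4016 without BPA lineage 0.02 mg/L replicates 2 and 3 and 1677 without BPA lineage 0 mg/L replicate 1.

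rfx2 shows the pattern in full. In the BPA lineage it had 1049, 863 and 853 normalized reads at 0.02 mg/L, against 265, 120.2 and 344 at 0 mg/L (a log2 difference of 2.04 ± 0.40, adjusted p = 0.045), and the interaction was -4.79 ± 0.56 (adjusted p = 0.000519). Its values at 0 mg/L in the BPA lineage thus lay in the range of those at 0.02 mg/L in the control lineage or below it. racgap1 had 1951, 2246 and 1447 normalized reads at 0.02 mg/L in the BPA lineage, against 563, 299 and 769.6 at 0 mg/L (1.87 ± 0.35, interaction -3.92 ± 0.49). amh had 23423, 17149 and 21158 normalized reads at 0.02 mg/L in the BPA lineage, against 7748, 7024 and 8386 at 0 mg/L (1.41 ± 0.26, interaction -2.66 ± 0.36). All 3 fell in one lineage and rose in the other.

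In all, 51 genes passed in both lineages, which is 2.12% of the control lineage calls and 66.2% of those in the BPA lineage. Of these 47 were lower in the control lineage and higher in the BPA lineage, 1 unnamed gene was the reverse, and 3 moved the same way. For all 47, each BPA lineage library at 0 mg/L stood below each control lineage library at 0 mg/L, and for 41 each BPA lineage library at 0.02 mg/L stood above each control lineage library at 0.02 mg/L. The 47 were picked by their calls on these same libraries, which favours such an order, so it is no separate result. They include the cohesin gene smc1b, the repair genes ercc6 and fancl, the polymerase gene pold1, rxrbb, socs6 and sumo4. Control lineage differences of the 47 ran from -2.85 to -0.62 and BPA lineage differences from 0.74 to 2.90. The 3 that moved alike were cyp17, tagln and hsdl1, chosen here because they were few. cyp17 had 3246, 2469 and 2742 normalized reads at 0.02 mg/L in the BPA lineage, against 10038, 8406 and 15696 at 0 mg/L (-1.97 ± 0.38, adjusted p = 0.045), and its interaction was 0.57 ± 0.53 (adjusted p = 0.501). hsdl1 had 552, 567 and 831 normalized reads at 0.02 mg/L, against 407, 315 and 376 at 0 mg/L in the control lineage (log2 difference 0.81 ± 0.25), and 477, 552 and 611 at 0.02 mg/L, against 273, 207 and 231 at 0 mg/L in the BPA lineage. tagln, a smooth muscle gene, had 3883, 2785 and 2831 at 0.02 mg/L, against 4898, 4587 and 6189 at 0 mg/L in the control lineage (log2 difference -0.73 ± 0.23), and 2914, 2201 and 3819.9 at 0.02 mg/L, against 7398, 9962 and 7721 at 0 mg/L in the BPA lineage.

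**Figure D5:**
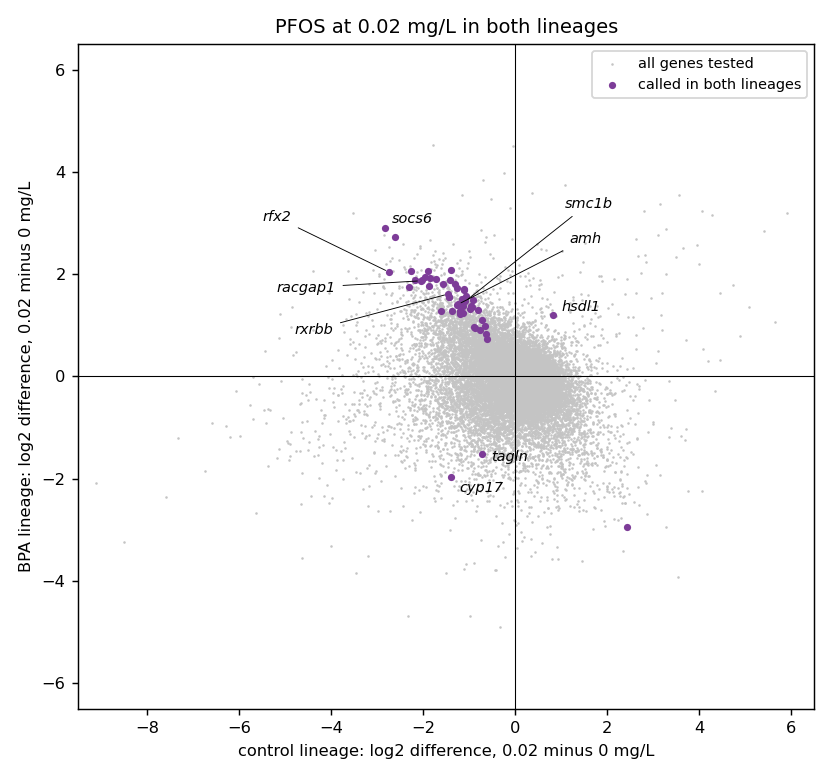
Log2 difference between 0.02 and 0 mg/L PFOS in the BPA lineage (vertical) against the control lineage (horizontal), 1 point per gene tested. The 51 genes called in both (purple) lie mostly upper left, 47 of them lower in the control lineage and higher in the BPA lineage, while cyp17 and tagln lie lower left and hsdl1 upper right.

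Rises in the cell cycle and repair lists were also set beside the BPA lineage. Among the 25 cell cycle genes that rose in the control lineage the median BPA lineage difference was -0.02, and the interaction passed for 11 of them. Of the 15 repair genes that rose it passed for 9, beside 62.6% of all control lineage calls, with a median BPA lineage difference of -0.17. neil1 had 655, 811 and 1034 normalized reads at 0.02 mg/L in the BPA lineage, against 1263, 1214 and 770.4 at 0 mg/L, and its interaction was 1.73 ± 0.33 (adjusted p = 0.00425). For mcm2 the interaction did not pass, with 8470.4, 7688 and 5301 normalized reads at 0.02 mg/L in the BPA lineage, compared with 7265, 7622 and 5177 at 0 mg/L. slc22a2 and wnt8b belong to the named genes whose positive interaction had the smallest p, with 152, 131 and 206 normalized reads at 0.02 mg/L in the BPA lineage, against 401, 557 and 366 at 0 mg/L for slc22a2 and an interaction of 3.28 ± 0.46, and 3.34 ± 0.53 for wnt8b.

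Over the doses of the control lineage, the lower dose of 0.002 mg/L has 2 libraries besides the one that stood apart, and its comparison would share the 0 mg/L libraries used here, so only values are given. rfx2 had 2666, 1814 and 1964 normalized reads at 0 mg/L, then 572 and 493 at 0.002 mg/L, then 414, 474 and 157 at 0.02 mg/L. ccne1 had 830.2, 1172 and 1165 normalized reads at 0 mg/L, then 1676 and 2043 at 0.002 mg/L, then 2115, 1729.8 and 2861 at 0.02 mg/L. The 0.002 mg/L libraries lay nearer to the 0.02 mg/L ones for both genes. mgmt had 458, 486 and 484 normalized reads at 0 mg/L, then 808 and 943 at 0.002 mg/L, then 912, 1056 and 1395 at 0.02 mg/L. wnt8b had 36.9, 42.1 and 60.7 normalized reads at 0 mg/L, then 111 and 114 at 0.002 mg/L, then 239, 229 and 293 at 0.02 mg/L. For these 2 the 0.002 mg/L libraries lay above the unexposed ones and, for wnt8b, below all exposed at 0.02 mg/L.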

How the data were processed

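Testis RNA was extracted with the Zymo Quick RNA/DNA Miniprep Plus kit and sequenced from NEBNext Ultra II libraries, per the labels' protocols. DESeq2 1.34.0, STAR 2.7.7a and fastp 0.23.2 stand in the submitters' processing notes. No source used here gives the genome build, the annotation, the counter or its handling of strand, which leaves antisense and near-identical genes uncertain. The authors deposited 1 table of signal values, read counts divided by a size factor for each library. All values were whole reads within 0.01 once multiplied back (100% of values), which gave 23.7 to 35.2 M reads in the 6 libraries compared and 23.7 to 47.7 M in all 18.

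Tested genes had a mean of 10 or more across all 18 libraries. The main test was limma 3.58.1 (R 4.3.3) on log2(value + 1), that is a pseudocount of 1, with 6 group means, 17 libraries and trended and robust moderation and Benjamini-Hochberg adjusted p-values at 0.05. A fold change on this scale understates the change of low genes. The left-out library correlated at 0.771 and 0.779 with the others of its group. Alternatives on the recovered reads used DESeq2 1.42.0 or edgeR 4.0.16. The members and the lists were chosen with earlier results of these data known. Gene names are those of the deposited table, where 14992 of 22941 genes had one, and the RefSeq table at hand matched no identifier, so no sequence is shown.

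The genes named first were, among those past the threshold with a name and a mean of at least 50 over the 6 libraries, the 12 largest rises and falls, the 8 rises and 8 falls of smallest p, and up to 6 passing members of each list by p. For the interaction they were the 6 named genes of smallest p in each direction. List members beyond 6, members that did not pass, and genes called in both lineages were chosen after their values were seen. Some members of the lists are not reported here.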

Additional observations from a re-analysis of the deposited data

Results flagged for a closer look

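The response to 0.02 mg/L PFOS differed between the lineages by the interaction test in limma for 2674 genes, adjusted over all genes tested. Among the 6 named genes of smallest p with a positive interaction (higher in the control lineage response), the log2 interaction was 3.61 for sp5a, 3.34 for wnt8b, 3.28 for slc22a2, 2.84 for tal2, 2.03 for rbfox1l and 1.91 for fzd3a. Among those with a negative interaction it was -4.79 for rfx2, -3.92 for racgap1, -3.90 for PRELID3B, -2.99 for rab24, -2.88 for slc25a42 and -2.66 for rsph10b.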

How the results depend on the processing

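The 2409 control lineage calls became 13 (2 higher, 11 lower) with all 18 libraries, 3801 (1614 higher, 2187 lower) in DESeq2, 1584 without trended and robust moderation, 1469 with a log2 difference of at least 1 as well (409 higher, 1060 lower) and 905 in edgeR on the 6 libraries alone, chosen after seeing the data. They ranged from 77 to 3114 when 1 library was left out. Under pseudocounts of 5 and 0.5, no filter, a mean of at least 50, TMM scaling, only the groups compared and edgeR they were 2478, 2370, 2234, 2324, 2292, 1657 and 2296. TMM scaling gave a median of all genes of -0.03, against 0.03 with the authors' scaling, and edgeR gave 990 higher against 1306 lower. The replicate numbers did not pair the libraries (correlations of same-numbered deviations -0.08, -0.07 and 0.01 in the control lineage), and the replicate block gave 1640 calls there, 0 in the BPA lineage and 2162 for the interaction. The 77 BPA lineage calls became 31 with no filter, 4 with only the groups compared, 1080 in DESeq2, and 0 with all 18 libraries, in edgeR and without trended and robust moderation, where limma's unadjusted p under 0.05 held for 1596 and 3308 genes and edgeR's for 3424. They ranged from 0 to 682 when 1 library was left out. The 2674 interaction calls became 261 with all 18 libraries and 1507 with only the groups compared, and ranged from 1149 to 4016 when 1 library was left out. The median of the cholesterol list, -0.10, became -0.15 under TMM scaling and in edgeR and -0.16 in DESeq2, and it ranged from -0.0361 to 0.0825 when 1 library was left out (0.0291, 0.025 and 0.0825 without 0.02 mg/L replicate 1, 0.02 mg/L replicate 3 and 0 mg/L replicate 1). Of the combinations of a named gene and a setting, 1868 kept their side of the threshold, 824 fell short of it and 0 changed direction. The causes were not tested. Genes near 0 reads in a group have fitted differences that depend on the pseudocount.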
